A study of Homo sapiens with 20 samples.

Results

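Adherent cells of 2 oligoclonal pools of SUM159PT, each edited at NNMT by a different CRISPR strategy, were compared with each other. SUM159PT is a triple-negative breast cancer line of mesenchymal type, grown here to 80% confluence in medium with 5% serum, insulin (5 µg/ml) and hydrocortisone (1 µg/ml). The pool KOd was made with 2 guide RNAs that cut out exon 1 of NNMT, and the pool KOs with 1 guide RNA aimed at the transcription start site. Each pool is a mixture of several clones, whose number is not given in the sources used here, and both carry an edit at the same gene. The comparison used 6 of the 20 libraries of the series, 3 of KOd and 3 of KOs, assigned by sample title. It asks what distinguishes the products of the 2 strategies when the culture is the same. Unedited cells in the same medium (wt, 3 libraries) and the same pools grown as secondary tumorspheres (3 libraries each, with EGF and bFGF at 20 ng/ml) are given beside it. The labels do not say whether the 3 libraries of a group came from separate cultures. Each p thus reflects how far libraries of a group scatter, which may be technical scatter only. The spread was estimated over all 20 libraries in 7 groups, not from the 6 compared alone. In bulk RNA of a clone mixture, fewer cells that express a gene and less RNA per cell cannot be told apart.

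NNMT transfers a methyl group from S-adenosylmethionine to nicotinamide, and so draws on both the methyl donor cycle and the NAD salvage pathway. ATF4 is a transcription factor whose translation rises when the kinases of the integrated stress response are active. Its targets take up and make amino acids, charge tRNAs and, when the response lasts, promote cell death. HSF1 drives the cytosolic chaperones when proteins misfold, and SREBP2 drives sterol synthesis when membrane cholesterol is low.

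The 3 KOd libraries had totals of 27446415 to 28096404 counts while those of labelled KOs ran from 39789580 to 43744817. Ribosomal RNA genes took 5.27% to 6.79% of the counts in KOd and 0.927% to 2.70% in labelled KOs. Within these, 28S genes took 2.44% to 3.26% against 0.254% to 0.875%, while 18S genes took 0.0620% to 0.145% against 0.131% to 0.434%. Depth and ribosomal RNA content thus differed between the pools in every library, and their part in the results cannot be told apart from the pool. The wt libraries had totals of 27432256 to 27992072 counts, with 2.99% to 6.85% from ribosomal RNA genes. In depth wt was thus like KOd, and in ribosomal RNA content above every labelled KOs library. The part of both traits in a difference between labelled KOs and wt cannot be told apart either. Replicate A of labelled KOs stood apart, with a mean correlation of 0.978 with its replicates (0.986 and 0.984 for B and C, 0.993 to 0.994 for the KOd libraries). Values that lost their call, turned or moved by over 1.5 times without it are given both ways. Of 9 tested markers of the line's type, VIM was at 4010, 3843 and 4535 CPM in KOd and 5967, 5446 and 5124 CPM in labelled KOs, and CD44 was at 549, 519 and 566 CPM and 409.8, 429 and 506 CPM, while EPCAM, CDH1, ESR1 and PGR were too low to be tested. The log2 difference of CD44, 0.28, lost its call without replicate A or B of labelled KOs (0.22 and 0.25) and without replicate C of KOd (0.25).

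NNMT itself (Entrez 4837, chr11:114257806-114313536, GRCh38) separated the pools. It was read at 4.39, 4.64 and 4.62 CPM in KOd and 130.1, 113 and 76.0 CPM in labelled KOs, where CPM is the usual depth-scaled count, computed here after TMM scaling, and wt had 120.4, 128 and 102 CPM. The difference, KOd minus labelled KOs, was -4.54 ± 0.21 on the log2 scale (± SE, edgeR quasi-likelihood test, adjusted p = 2.1e-11). The lowest labelled KOs library lay above 76 CPM and the highest KOd library below 5 CPM. Against wt the mRNA differed by -4.68 in KOd and by -0.14 in labelled KOs, so it does not check the label of the KOs libraries. Protein was not analysed here.

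Of the 12 tested genes that start within 1 Mb of NNMT, counting NNMT, 5 were higher in KOd, and they lie on both sides of it. Among all tested genes 28.8% were higher. The adjacent transcription factor gene ZBTB16 was at 44.02, 43.6 and 47.9 CPM in KOd and 20.3, 11.0 and 9.11 CPM in labelled KOs (1.74 ± 0.26, adjusted p = 1.7e-05). RBM7, a subunit of the complex that targets nuclear RNA to the exosome, was at 68.5, 69.2 and 81.9 CPM in KOd and 32.5, 31.6 and 35.6 CPM in labelled KOs (1.14 ± 0.11, adjusted p = 6.4e-08). The deubiquitinase gene USP28, at 49.2, 43.5 and 43.6 CPM in KOd and 22.7, 18.6 and 19.2 CPM in labelled KOs, had 1.17 ± 0.09, and ZW10 (kinetochore) and TTC12 had 0.94 and 1.24. In each of these 5 genes all KOd libraries were above all labelled KOs libraries. The pools did not overlap, in either direction, in 58.2% of all tested genes. The serotonin receptor gene HTR3A was lower in KOd (-1.28 ± 0.40) at no more than 2.23 CPM in any library, and did not pass without replicate B of labelled KOs (adjusted p = 0.059). REXO2 (-0.25, adjusted p = 0.056) and C11orf71 (-0.06) did not pass (REXO2 at -0.38 did so without replicate A of labelled KOs), and neither did DRD2, ANKK1 and CADM1, which were at 0.119 CPM or less in every library of both pools. CADM1, an adhesion molecule gene, stood at 37.7 ± 15.8 CPM in wt, given here and below as mean ± SD, n = 3.

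In all, 9721 of 16323 tested genes passed at an adjusted p under 0.05, which is 59.6%. Of these 4704 (28.8%) were higher and 5017 (30.7%) lower in KOd, and the median log2 fold change over all tested genes was -0.03. At least a 2-fold difference with an adjusted p under 0.05 was found for 1897 genes higher (11.6%) and 1673 lower (10.2%). At least 8-fold differences numbered 188 and 145, and at least 32-fold differences 31 and 14. The 3 libraries of one pool did not overlap the 3 of the other in 9498 genes (58.2%). Labelled KOs libraries scattered more than KOd libraries, and a fit of the compared groups alone called 7595 genes. With library totals alone as scaling, the split moved to 5711 higher and 3844 lower and the median to 0.12, so the direction of a gene with a small difference depends on the scaling. Counts for gene lists below are to be read against the shares of 28.8% and 30.7%.

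**Figure D1:**
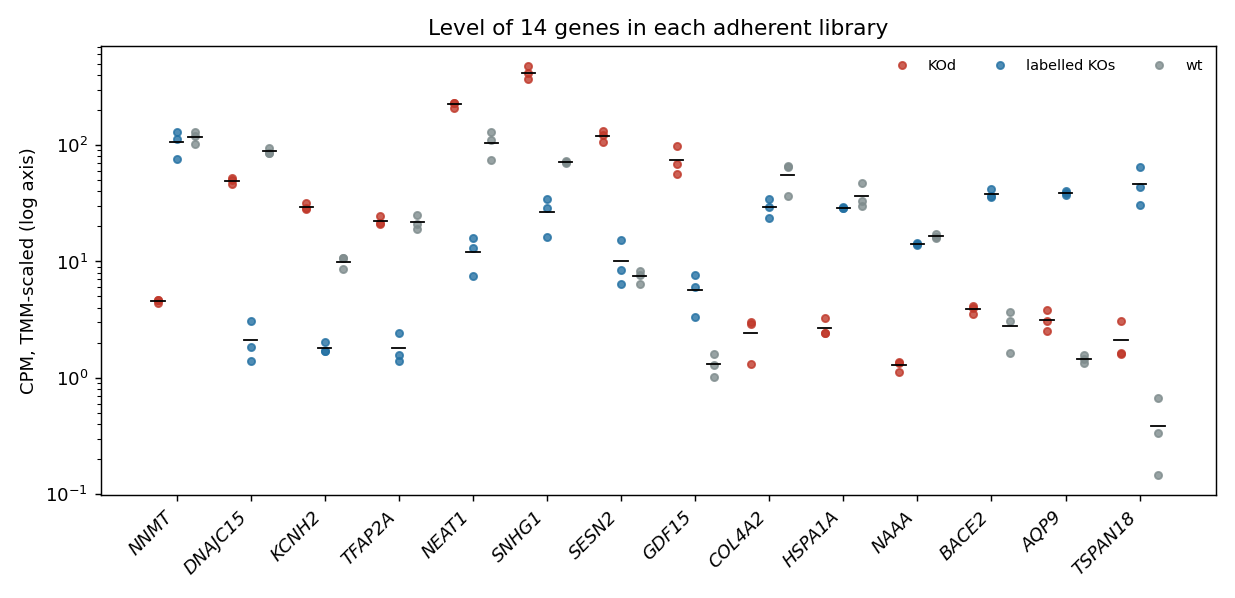
CPM (log axis) of 14 genes in each adherent library, 3 points per group with the group mean as a bar, for KOd, labelled KOs and wt. Of the 3 groups NNMT is lowest in KOd, DNAJC15, KCNH2 and TFAP2A are lowest in labelled KOs, and AQP9, BACE2 and TSPAN18 are highest in labelled KOs.

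The largest differences upward in KOd were in genes of several roles. RAB39B, a small GTPase of vesicle traffic, was at 33.9, 39.3 and 54.0 CPM in KOd and 1.03, 0.913 and 0.653 CPM in labelled KOs (5.60 ± 0.30, adjusted p = 1.1e-10), against 0.497 ± 0.333 CPM in wt. KCNH2, the hERG potassium channel, was at 28.9, 28.2 and 31.6 CPM in KOd and 1.70, 1.72 and 2.04 CPM in labelled KOs (4.02 ± 0.17). The wt level of KCNH2, 9.95 ± 1.21 CPM, lay between the pools. In DNAJC15, a mitochondrial J-domain co-chaperone, the difference of 4.56 ± 0.17 came from 46.3, 51.6 and 50.2 CPM in KOd and 1.41, 1.85 and 3.07 CPM in labelled KOs, with 88.8 ± 4.95 CPM in wt. The transcription factor gene TFAP2A was at 21.1, 21.5 and 24.7 CPM in KOd and 2.44, 1.58 and 1.39 CPM in labelled KOs (3.62 ± 0.16) and FGF13, an intracellular FGF homologue, had 3.78 ± 0.19. For TFAP2A and FGF13 KOd differed from wt by 0.05 and -0.29, whereas labelled KOs differed by -3.57 and -4.07.

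Stress-linked genes were among the other large rises. GDF15, a secreted stress cytokine, was at 56.6, 68.6 and 98.6 CPM in KOd and 7.59, 6.01 and 3.32 CPM in labelled KOs (3.72 ± 0.25, adjusted p = 1.4e-09). SESN2, a leucine-sensing inhibitor of mTORC1, was at 107, 121 and 132 CPM in KOd and 15.2, 8.46 and 6.36 CPM in labelled KOs (3.58 ± 0.27). INHBE, which encodes the inhibin beta E chain, had 3.56 ± 0.46, and 4.98 without replicate A of labelled KOs, where it was at 10.8 CPM against 2.07 and 1.56 in B and C. NIBAN1, another stress-induced gene, was at 23.9, 27.9 and 62.5 CPM in KOd and 3.15, 2.12 and 3.41 CPM in labelled KOs (3.72 ± 0.31). Each of these 4 genes was nearer to wt in labelled KOs: the fold changes against wt were 5.83, 4.01, 5.96 and 3.95 in KOd and 2.12, 0.43, 2.40 and 0.24 in labelled KOs. ECM2, a matrix protein gene, had 3.90 ± 0.33, and 4.58 without replicate A. PKD1P1, PKD1P4-NPIPA8 and PKD1P3-NPIPA1 had 3.61, 3.59 and 3.59, but these near-identical copies on chromosome 16 share reads and count as 1 uncertain signal.

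Besides NNMT, the largest differences downward in KOd included enzymes, membrane proteins and matrix genes. OLAH, the thioesterase that releases medium-chain fatty acids from fatty acid synthase, was at 0.961, 0.628 and 0.552 CPM in KOd and 19.5, 33.1 and 50.5 CPM in labelled KOs (-5.58 ± 0.36, adjusted p = 7.7e-10). TSPAN18, a tetraspanin, was at 1.65, 1.60 and 3.10 CPM in KOd and 64.9, 43.8 and 30.4 CPM in labelled KOs (-4.45 ± 0.33). AQP9, a water and glycerol channel, was at 2.50, 3.07 and 3.83 CPM in KOd and 40.4, 38.9 and 37.1 CPM in labelled KOs (-3.63 ± 0.28). BACE2, a membrane aspartyl protease, was at 4.12, 3.98 and 3.52 CPM in KOd and 36.8, 41.8 and 36.1 CPM in labelled KOs (-3.30 ± 0.20). These 4 genes were low in wt as well, at 1.73 ± 0.205, 0.383 ± 0.264, 1.46 ± 0.116 and 2.81 ± 1.05 CPM. The lysosomal amidase gene NAAA was at 1.37, 1.12 and 1.35 CPM in KOd and 13.7, 14.5 and 14.1 CPM in labelled KOs (-3.46 ± 0.12). The sphingosine-1-phosphate receptor gene S1PR3 was at 2.71, 1.85 and 1.35 CPM in KOd and 15.9, 15.7 and 27.5 CPM in labelled KOs (-3.32 ± 0.22). NAAA and S1PR3 had wt levels of 16.4 ± 0.748 and 22.5 ± 0.152 CPM, nearer to labelled KOs than to KOd. The myosin light chain gene MYL9 (-3.36 ± 0.44), the pattern receptor gene TLR2 (-3.33 ± 0.32) and the glutamate transporter gene SLC1A1 (-3.26 ± 0.17) were lower too. Replicate A carried part of 2 others: the hyaluronan-degrading CEMIP had -3.66 and -2.25 without it, and the myosin gene MYO1D -3.33 and -2.38. ANGPTL4, an inhibitor of lipoprotein lipase, was at 1.96, 1.95 and 1.93 CPM in KOd and 5.30, 34.5 and 54.4 CPM in labelled KOs (-4.01 ± 0.52), and at -3.35 without replicate C of labelled KOs.

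Few genes were on in one pool and off in the other, by the criterion of at least 1 CPM in each library of one and at most 3 counts in each library of the other. The noncoding LINC00355 was read with 48 to 76 counts per KOd library and 0 in each labelled KOs library, at least 27.8-fold higher against a floor of 3 counts per library. FAM218A had 56 to 69 counts against 0, 0 and 3 (at least 27.4-fold), and the histone gene H2AJ 52 to 78 against 2 to 3 (at least 26.5-fold). Of the 3, H2AJ was also well below wt in KOd, with 1.78, 2.72 and 1.79 CPM against 26.6 ± 8.98 CPM. In the other direction, GOLGA2P11 and UGT8, the galactosyltransferase of galactolipid synthesis, were at least 13.5-fold and 11.9-fold lower in KOd.

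Since NNMT consumes nicotinamide and S-adenosylmethionine, the genes of both cycles were examined. Of 29 tested genes of NAD and nicotinamide metabolism, 10 were higher and 12 lower in KOd (median -0.34), and 10 and 10 without replicate A of labelled KOs (median 0.00). Purine nucleoside phosphorylase PNP, which frees nicotinamide from its riboside, was at 45.01, 40.1 and 40.0 CPM in KOd and 124, 206 and 227 CPM in labelled KOs (-2.15 ± 0.17, adjusted p = 1.2e-08). NAMPT, the rate-limiting salvage enzyme, was higher (0.65 ± 0.13). The difference of QPRT, of NAD synthesis from tryptophan, rested on replicate A, with -3.09 and, without it, -0.34 (adjusted p = 0.68). NMNAT1, the nuclear enzyme of the last step to NAD, had 1.51. AOX1, which oxidises the NNMT product, had -1.36. Of 26 genes of the methionine and one-carbon cycle, 8 were higher and 12 lower (median -0.20). CTH, which makes cysteine from cystathionine, was at 77.1, 86.3 and 96.5 CPM in KOd and 11.8, 6.76 and 7.86 CPM in labelled KOs (3.29 ± 0.19, adjusted p = 2.4e-10), and CBS, the step before it, had 1.5 ± 0.30, and 2.24 without replicate A. The 2 enzymes next to NNMT in the methyl cycle were lower: MAT2A, which makes S-adenosylmethionine, had -1.08 ± 0.16, and AHCY, which clears the spent donor, was at 364, 381 and 384 CPM in KOd and 547, 552 and 532 CPM in labelled KOs (-0.53 ± 0.06).

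Chromatin enzymes that use or reverse methylation were also counted. Of 14 PRC2 subunits and H3K27 demethylases, 8 were higher and 3 lower in KOd. The catalytic subunit gene EZH2 was at 84.2, 87.2 and 88.9 CPM in KOd and 30.0, 38.2 and 40.0 CPM in labelled KOs (1.27 ± 0.15), and the demethylase genes KDM6A and KDM6B had 0.99 and 1.34. AEBP2, an accessory subunit, had 1.36, while EPOP, another one, was lower (-1.60). For the 13 DNA methylation genes the count was 4 higher and 6 lower, with TET2, which oxidises methylcytosine, at 1.43 ± 0.11 and the methyltransferase DNMT3B at -1.01 ± 0.15.

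ATF4 targets were higher in KOd, and of the 52 lists theirs had the largest share of higher members. Of 33 tested members, 30 were higher and 1 lower, against 28.8% and 30.7% of all genes, and their median was 1.48. Their summed level was 12960, 13500 and 14840 CPM in KOd and 5885, 5723 and 6027 CPM in labelled KOs. The pseudokinase gene TRIB3, which dampens the response, was at 586, 704 and 842 CPM in KOd and 128, 114 and 107 CPM in labelled KOs (2.61 ± 0.12, adjusted p = 2.1e-11), and wt had 52.9 ± 2.60 CPM. DDIT3, the CHOP factor linked to cell death, was at 133, 149.5 and 173 CPM in KOd and 24.2, 17.6 and 18.9 CPM in labelled KOs (2.91 ± 0.22). CHAC1, which degrades glutathione, was at 55.5, 65.6 and 60.8 CPM in KOd and 12.1, 5.83 and 4.40 CPM in labelled KOs (3.02 ± 0.26). In each of these genes the lowest KOd library exceeded the highest labelled KOs library by more than 4-fold.

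Enzymes and transporters of the list were higher as well. The serine synthesis genes PSAT1, PHGDH and PSPH had 2.43, 2.24 and 1.10. ASNS, asparagine synthetase, was at 374, 425 and 467 CPM in KOd and 90.9, 48.2 and 50.4 CPM in labelled KOs (2.74 ± 0.19), although it shares reads with a readthrough transcript. The cationic amino acid transporter SLC7A1 was at 379, 375 and 386 CPM in KOd and 105, 117 and 138 CPM in labelled KOs (1.67 ± 0.11), the cystine transporter SLC7A11 had 2.31 ± 0.24, and SLC7A5 and SLC3A2, the 2 chains of the large neutral amino acid transporter, had 1.68 and 1.48. Of the tRNA synthetases CARS1 was at 259, 259.5 and 259.6 CPM in KOd and 96.6, 94.7 and 82.5 CPM in labelled KOs (1.51 ± 0.09), while GARS1, MARS1 and AARS1 had 1.05, 0.88 and 0.80. ATF4 mRNA differed little, at 417, 402 and 426 CPM in KOd and 320.3, 333 and 326 CPM in labelled KOs (0.34 ± 0.09). ATF5 was the member lower in KOd (-0.88 ± 0.18), and SHMT2 and ALDH1L2 did not pass (-0.11 and -0.52). Without replicate A of labelled KOs ALDH1L2 turned to 0.26, which did not pass either. The members' median against wt was 1.62 in KOd and 0.31 in labelled KOs.

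The C/EBP-ATF response element, at which ATF4 dimers bind, was searched for as TGATGNAAN on both strands of the RefSeq promoter windows. A window here is the 250 bases before a start (GRCh38.p14). A gene counted once if any of its windows matched, and overlapping matches were allowed. A match is a description of the letters, not a shown binding site. Of 12494 tested genes with a window, 323 held a match (2.59%), and of 28 list members with one, 7 did: CEBPG, ASNS, GARS1, CHAC1, ATF3, AARS1 and SLC1A5 (25%). All 7 were higher in KOd with all libraries, though SLC1A5 (0.38) lost its call without replicate A of labelled KOs (0.22) and without replicate B or C of KOd (0.37 each). The 250 bases before the start are shown for ASNS and CHAC1, which had the largest differences of the 7, with the match in capitals. ASNS lies on the minus strand at chr7:97872409-97872658 and CHAC1 on the plus strand at chr15:40953221-40953470, where the match is on the opposite strand.
ASNS: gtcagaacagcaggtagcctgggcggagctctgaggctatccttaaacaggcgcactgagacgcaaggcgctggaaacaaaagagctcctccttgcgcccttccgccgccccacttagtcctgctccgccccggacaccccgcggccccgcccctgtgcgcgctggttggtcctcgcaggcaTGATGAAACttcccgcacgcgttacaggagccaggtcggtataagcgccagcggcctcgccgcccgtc
CHAC1: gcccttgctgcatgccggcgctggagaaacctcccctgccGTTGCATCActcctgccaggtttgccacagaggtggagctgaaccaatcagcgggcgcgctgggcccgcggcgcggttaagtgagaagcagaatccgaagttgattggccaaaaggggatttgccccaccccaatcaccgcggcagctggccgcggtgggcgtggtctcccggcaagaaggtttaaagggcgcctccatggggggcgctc

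Other stress pathways were split. Of 22 genes of the unfolded protein response, 11 were higher and 7 lower (median 0.15). Sensors and degradation factors were among the higher ones: the IRE1 gene ERN1 was at 33.6, 39.1 and 51.6 CPM in KOd and 6.62, 5.02 and 3.46 CPM in labelled KOs (3.04 ± 0.19), and HERPUD1, SYVN1 and DNAJB9 had 1.99, 1.33 and 2.13. Folding factors of the ER lumen stood on both sides, with CALR and SDF2L1 lower (-0.54 and -0.86) and HSPA5 higher (0.39). HSPA5 lost its call without replicate A or B of labelled KOs (0.23 and 0.35) and without replicate A or C of KOd (0.38 and 0.35). Of 24 p53 targets, 15 were higher and 6 lower (median 0.65). GDF15 and SESN2 belong to this list too, and GADD45A, a growth arrest gene, was at 221, 241 and 278 CPM in KOd and 57.8, 51.4 and 70.8 CPM in labelled KOs (2.04 ± 0.12). The pro-apoptotic BBC3 and the p53 ligase gene MDM2 had 2.56 ± 0.28 and 0.70 ± 0.09. The cell cycle inhibitor CDKN1A did not pass (-0.08, adjusted p = 0.70), with 82.0, 85.2 and 118 CPM in KOd and 100.1, 89.2 and 111 CPM in labelled KOs, and BAX was lower (-0.67).

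The list of cytosolic heat shock chaperones was lower in KOd on balance. Besides cytosolic chaperones it holds the mitochondrial HSPD1 and the transcription factor gene HSF2. Of 23 tested members, 16 were lower and 3 higher, with a median of -0.91. Their summed level was 5330, 4697 and 4843 CPM in KOd and 10680, 14330 and 15440 CPM in labelled KOs. HSPA8, the constitutive HSP70, was at 487, 435 and 474 CPM in KOd and 3029, 4166 and 4851 CPM in labelled KOs (-3.11 ± 0.14, adjusted p = 2.1e-11), and wt had 3196 ± 88.5 CPM. The inducible HSP70 genes HSPA1A and HSPA1B had -3.42 ± 0.17 and -3.06 ± 0.14, but they are near-identical and share reads. HSP90AA1, the inducible HSP90, was at 988, 755 and 689.6 CPM in KOd and 1979, 2768 and 2851 CPM in labelled KOs (-1.64 ± 0.15). Co-chaperones that start the HSP70 cycle followed, with DNAJB1 at 74.5, 73.9 and 82.7 CPM in KOd and 175, 166 and 197 CPM in labelled KOs (-1.22 ± 0.08) and DNAJA1 at -2.30 ± 0.16. The mitochondrial chaperonin pair HSPD1 and HSPE1 had -0.77 and -1.65.

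The higher members were HSPA4L, HSF2 and CHORDC1 (0.91, 0.64 and 0.56). CHORDC1 lost its call without replicate A of labelled KOs (0.34, adjusted p = 0.12) and without replicate A or C of KOd (adjusted p = 0.053 and 0.089). HSF1 itself did not pass (0.08), but did with library totals alone as scaling (0.25). Against wt the median was -0.85 in KOd and 0.07 in labelled KOs. The heat shock element, where HSF1 binds, was searched for in the same windows, on both strands, as GAA, NN, TTC, NN and GAA in 1 run. It was found in 59 of 12494 genes (0.472%) and in 6 of 21 members with a window (28.6%). HSPA8, HSP90AA1, HSP90AB1, DNAJB6 and HSPD1 were lower in KOd and CHORDC1 higher. The 250 bases before the start are shown for HSPA8 and HSP90AA1, the members with the largest differences among the 6, with matches in capitals. HSPA8 lies on the minus strand at chr11:123062137-123062386 and HSP90AA1 on the minus strand at chr14:102087045-102087294.
HSPA8: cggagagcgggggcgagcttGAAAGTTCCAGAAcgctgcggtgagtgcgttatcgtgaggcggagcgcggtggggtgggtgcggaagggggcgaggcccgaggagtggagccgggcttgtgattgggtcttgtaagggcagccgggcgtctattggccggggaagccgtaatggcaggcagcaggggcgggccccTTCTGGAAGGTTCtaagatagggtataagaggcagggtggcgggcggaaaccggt
HSP90AA1: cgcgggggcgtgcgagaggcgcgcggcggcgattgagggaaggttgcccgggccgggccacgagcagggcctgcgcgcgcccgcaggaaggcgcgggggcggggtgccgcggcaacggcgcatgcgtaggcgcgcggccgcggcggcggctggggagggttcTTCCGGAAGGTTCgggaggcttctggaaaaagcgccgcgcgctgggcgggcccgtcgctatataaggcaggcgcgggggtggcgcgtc

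**Figure D2:**
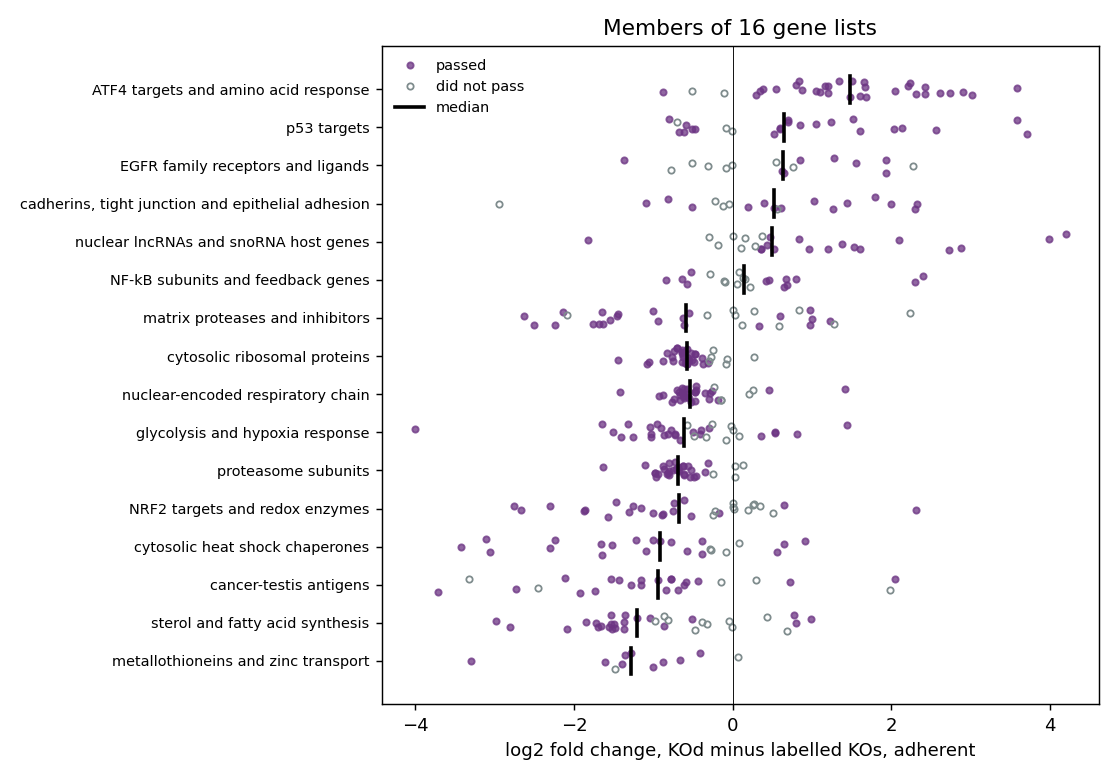
Log2 fold change, KOd minus labelled KOs, of each tested member of 16 gene lists, with filled points for members that passed, open points for those that did not, and a bar at the median. The ATF4 list lies furthest to the right, with a median of 1.48, and the sterol, cancer-testis, heat shock and metallothionein lists lie furthest to the left.

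Proteasome, ribosome and respiratory chain genes were lower in KOd. Of 34 proteasome subunits, 30 were lower and 0 higher (median -0.69). PSMB5, the chymotrypsin-like subunit, was at 118, 108 and 103 CPM in KOd and 257, 349 and 414 CPM in labelled KOs (-1.63 ± 0.12, adjusted p = 6.0e-09). Of 38 cytosolic ribosomal proteins 32 were lower (median -0.57), with RPL11 at 594, 584 and 587 CPM in KOd and 1138, 1159 and 1364 CPM in labelled KOs (-1.05 ± 0.12). Of 35 mitochondrial ribosomal proteins 23 were lower and 4 higher. Of 36 respiratory chain subunits 29 were lower and 2 higher (median -0.53). NDUFB3, of complex I, was at 27, 29.0 and 25.4 CPM in KOd and 63.8, 70.9 and 83.9 CPM in labelled KOs (-1.42 ± 0.10), whereas SDHD, of complex II and encoded on chromosome 11, was higher, at 84.7, 87.9 and 85.9 CPM in KOd and 31.3, 33.1 and 32.6 CPM in labelled KOs (1.41 ± 0.09).

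Gene length moved with these differences. With genes ranked by deposited length into 4 classes, the median log2 fold change of all tested genes was -0.31 up to 1989 bases, -0.11 up to 3194, 0.00 up to 5010 and 0.24 above that. In the shortest class 1623 of 4081 genes were lower and 657 higher, and in the longest 809 of 4080 were lower and 1755 higher. The shortest class held 32 of 38 ribosomal proteins, 26 of 36 respiratory chain subunits and 24 of 34 proteasome subunits, but 3 of 23 heat shock genes and 4 of 33 ATF4 targets. The part of length in the list results was not tested further. Against wt, the ribosomal proteins had a median of 0.04 in KOd and 0.65 in labelled KOs.

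Carbon metabolism and redox genes were lower too. Of 34 glycolysis and hypoxia response genes, 21 were lower and 5 higher (median -0.62). The enolase gene ENO1 was at 2780, 2669 and 2603 CPM in KOd and 4356, 5865 and 6132 CPM in labelled KOs (-1.02 ± 0.10). The carbonic anhydrase gene CA12 was at 158, 133 and 126 CPM in KOd and 370.2, 374 and 355 CPM in labelled KOs (-1.40 ± 0.09). PFKM, PFKFB3, GAPDH and PGK1 had -1.03, -1.04, -0.81 and -0.77, and the pyruvate dehydrogenase kinase gene PDK1 was higher (0.81). LDHA did not pass (-0.34, and -0.56 with a call without replicate A of labelled KOs). Of 30 NRF2 targets and redox enzymes, 18 were lower and 2 higher (median -0.68), and 19 and 5 without replicate A of labelled KOs. PRDX1, a peroxidase, was at 255, 224 and 231 CPM in KOd and 722, 854 and 1013 CPM in labelled KOs (-1.86 ± 0.12, adjusted p = 8.8e-10). FTL, the ferritin light chain, was at 1281, 1248 and 1312 CPM in KOd and 4320, 3250 and 3826 CPM in labelled KOs (-1.57 ± 0.12). HMOX1, which breaks down haem, and the aldo-keto reductases AKR1C1 and AKR1C2 had -2.76, -2.30 and -2.67, and HMOX1 -1.92 without replicate C of labelled KOs. The 2 members higher with all libraries were NFE2L2, which encodes NRF2 itself (0.65), and SLC7A11, an ATF4 target as well. Of 11 metallothionein and zinc genes 9 were lower and 0 higher (median -1.28), with MT2A at 405, 372 and 332 CPM in KOd and 639, 718 and 862 CPM in labelled KOs (-1.0 ± 0.16).

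Sterol synthesis genes were lower in KOd on average, but the size rested on 1 library. Of 33 genes of sterol and fatty acid synthesis, 20 were lower and 3 higher (median -1.20). The summed level was 3473, 3139 and 2975 CPM in KOd and 10880, 3926 and 3399 CPM in replicates A, B and C of labelled KOs. HMGCS1, the enzyme before HMG-CoA reductase, was at 26.4, 22.4 and 20.4 CPM in KOd and 395, 37.5 and 48.5 CPM in labelled KOs (-2.80 ± 0.64), and had -0.90 without replicate A. NSDHL, a later enzyme of the pathway, was at 35.8, 32.03 and 28.1 CPM in KOd and 150.1, 90.7 and 103 CPM in labelled KOs (-1.84 ± 0.16). Without replicate A, 14 members were lower and 9 higher, with a median of -0.32. The sterol regulatory element, where SREBP2 binds, was searched for on both strands of the promoter windows as ATCAC, N and CCAC in 1 run, and was found in 15 of 12494 genes (0.12%). Of 26 members with a window 1 held it (3.85%), SREBF2, which did not pass (-0.05). Interferon-stimulated genes depended on the same library: 7 of 40 were higher and 7 lower with it (median 0.01), and 21 and 4 without it (median 0.71). XAF1, an antagonist of the apoptosis inhibitor XIAP, was higher in every KOd library, at 16.5, 18.7 and 15.6 CPM in KOd and 2.70, 1.40 and 0.795 CPM in labelled KOs (3.35 ± 0.27). The ubiquitin-like modifier gene ISG15 had -1.99 ± 0.37, from 6.86, 7.68 and 12.7 CPM in KOd and 67.6, 21.0 and 19.8 CPM in labelled KOs, and -1.17 without replicate A.

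**Figure D3:**
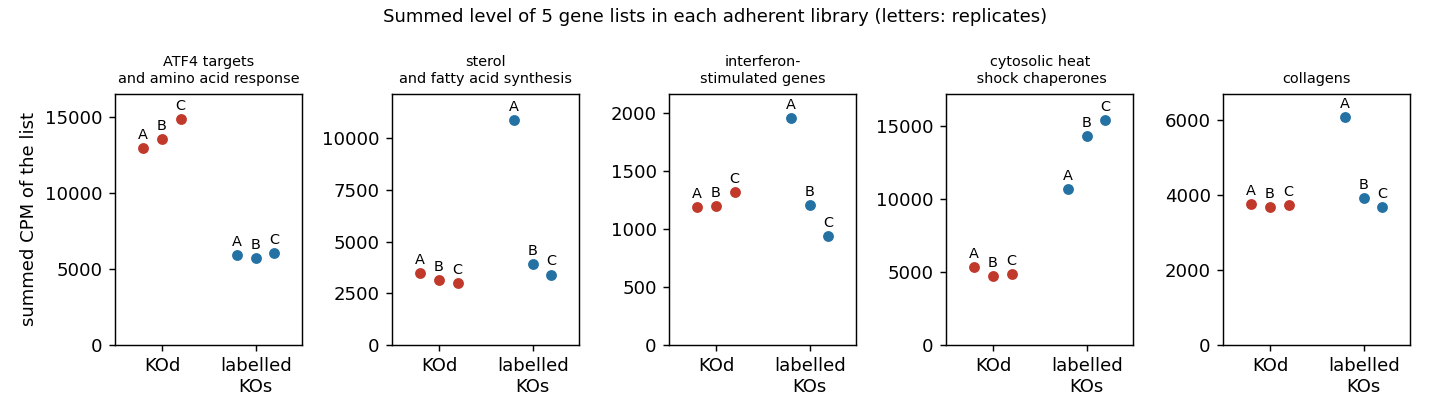
Summed CPM of the members of 5 gene lists in each of the 6 libraries, with letters for replicates and each axis starting at 0. In the sterol, interferon and collagen panels replicate A of labelled KOs stands above all other libraries, while in the ATF4 and heat shock panels the pools do not overlap.

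Extracellular matrix genes were lower in part, and some of the counts rested on the same library. Of 28 collagens, 11 were lower and 4 higher (median -0.46), and 8 and 8 without replicate A (median 0.09). The paired basement membrane chains COL4A1 and COL4A2 were lower with all libraries apart, COL4A2 at 2.88, 3.04 and 1.31 CPM in KOd and 23.8, 29.3 and 34.7 CPM in labelled KOs (-3.60 ± 0.28, adjusted p = 7.2e-09) and COL4A1 at -3.73 ± 0.38. Their wt levels were 64.2 ± 23.3 and 55.7 ± 16.7 CPM. COL3A1, at 2.92, 2.48 and 2.17 CPM in KOd and 25.5, 1.503 and 2.21 CPM in labelled KOs, had -1.96 ± 0.76 and turned to 0.44 without replicate A. Of 32 matrix proteases and inhibitors 16 were lower and 6 higher (median -0.58, -0.15 without replicate A). The inhibitor gene TIMP1 was at 499, 473 and 565 CPM in KOd and 1582, 2788 and 2896 CPM in labelled KOs (-2.24 ± 0.21). The urokinase receptor gene PLAUR was at 9.61, 11.1 and 12.9 CPM in KOd and 41.2, 55.3 and 51.1 CPM in labelled KOs (-2.13 ± 0.11, adjusted p = 1.1e-10), and SERPINE2, a serine protease inhibitor, had -2.51 ± 0.15. ADAM9 and ADAM17, membrane sheddases, were higher (0.98 and 1.23).

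The summed levels of leukocyte, endothelial and fibroblast markers were each lower in every KOd library than in any labelled KOs library. Of 16 leukocyte markers 6 were tested and CD68, a lysosomal protein, passed (-1.04 ± 0.15). Their summed level was 43.1 to 51.4 CPM in KOd and 64.1 to 105.9 CPM in labelled KOs, nearly all of it CD68, and the pan-leukocyte PTPRC was at 1.58, 1.29 and 1.35 CPM in KOd and 2.03, 0.617 and 1.22 CPM in labelled KOs. Of 8 tested endothelial markers 2 were higher and 3 lower (3 and 2 without replicate A, where the median turned from -0.75 to 0.56), with summed levels of 18.2 to 18.4 CPM and 30.9 to 59.6 CPM. KDR, at 3.02, 3.35 and 1.93 CPM in KOd and 29.1, 3.76 and 4.57 CPM in labelled KOs, had -2.17 and -0.59 without replicate A, where it did not pass, and VWF stayed below 1 CPM in the mean of each pool. Of 11 tested fibroblast markers 4 were lower, S100A4, DCN, PDGFRA and COL3A1, and none higher (median -0.37), a share near the 30.7% of all genes. Without replicate A 3 were higher and 3 lower (median 0.11). With it the summed levels were 403.0 to 454.5 CPM and 697 to 1385 CPM. The fibroblast markers COL1A2 and DPT were at or near 0 in every library. The part of these markers in the matrix results was not tested.

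Epithelial and mesenchymal genes did not move as one block. Of 19 cadherins and junction genes, 11 were higher in KOd and 3 lower (median 0.52). The tight junction scaffold gene TJP1 was at 189.8, 187 and 218 CPM in KOd and 87.3, 85.4 and 75.8 CPM in labelled KOs (1.26 ± 0.08, adjusted p = 3.6e-10). The claudin gene CLDN1 was at 24.0, 31.2 and 55.9 CPM in KOd and 8.29, 5.96 and 8.21 CPM in labelled KOs (2.31 ± 0.26), and OCLN and DSP, of tight junctions and desmosomes, had 2.00 and 1.45. The simple keratins KRT8 and KRT18 were lower, KRT8 at 403, 422 and 432 CPM in KOd and 931, 959 and 1119 CPM in labelled KOs (-1.26 ± 0.10) and KRT18 at -1.41 ± 0.10, while the luminal transcription factor gene GATA3 was higher (1.67 ± 0.15). In the list of mesenchymal markers and regulators of epithelial-mesenchymal transition 10 of 21 were lower and 5 higher (median -0.41). Among its transcription factors TWIST1, ZEB1 and ZEB2 were higher (1.75, 0.93 and 1.38) and SNAI1 lower (-1.64). The mesenchymal marker S100A4 was at 123, 120.1 and 87.9 CPM in KOd and 673, 380.2 and 414 CPM in labelled KOs (-2.15 ± 0.17). The basal regulator TP63 had 1.77 ± 0.24 and the 14-3-3 sigma gene SFN -2.46 ± 0.18.

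Receptors and their ligands differed as well. Of 16 EGFR family genes 7 were higher and 1 lower, with EGFR at 178, 190.0 and 219 CPM in KOd and 59.4, 44.2 and 49.6 CPM in labelled KOs (1.94 ± 0.10, adjusted p = 1.0e-10). Ligands of the family stood on both sides, with AREG, EREG and NRG1 at 1.94, 1.28 and 1.56 and HBEGF at -1.36. FGF2 was at 206, 215 and 274 CPM in KOd and 57.9, 45.7 and 59.0 CPM in labelled KOs (2.09 ± 0.12), while among 30 genes that answer FGF and ERK signalling 16 were lower and 9 higher. One of them, the phosphatase gene DUSP2, had -4.03 ± 0.37. The glucocorticoid receptor gene NR3C1, whose ligand hydrocortisone was in the medium, was at 293, 283 and 300.2 CPM in KOd and 129.9, 118 and 145 CPM in labelled KOs (1.15 ± 0.08), and 11 of 22 genes of that list were higher and 6 lower. The YAP and TAZ targets CCN1 and CCN2 were lower (-2.23 ± 0.14 and -3.21 ± 0.23), although 11 of 27 targets were higher and 9 lower. IGFBP2, which binds insulin-like growth factors, had -4.40 ± 0.26, from 0.172, 0.384 and 0.552 CPM in KOd and 9.34, 7.79 and 6.42 CPM in labelled KOs.

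Interleukin-1 family genes were lower on balance, and other immune genes stood on both sides. Of 13 members 7 were lower and 3 higher (median -1.45). The signalling receptor gene IL1R1 was at 39.6, 36.6 and 39.4 CPM in KOd and 137, 122 and 89.0 CPM in labelled KOs (-1.59 ± 0.12, adjusted p = 5.7e-09), and IL1R2, the decoy, had -3.29 ± 0.54 (-2.26 without replicate A). The cytokine IL18 was higher (1.32 ± 0.10). In the NF-kB list 8 of 20 were higher and 4 lower. BIRC2 and BIRC3, adjacent inhibitor of apoptosis genes on chromosome 11, were higher, BIRC2 at 116, 123 and 118 CPM in KOd and 22.6, 20.6 and 29.3 CPM in labelled KOs (2.30 ± 0.10). BIRC3 was at 85.2, 83.5 and 103 CPM in KOd and 18.0, 15.5 and 18.1 CPM in labelled KOs (2.40 ± 0.11). TSLP, an epithelial cytokine, was at 7.75, 8.65 and 17.1 CPM in KOd and 0.621, 0.322 and 0.710 CPM in labelled KOs (4.33 ± 0.39). Cancer-testis antigens, germline genes that tumours express, were lower in 18 of 25 and higher in 2 (median -0.94), with MAGEC2 at 234, 235 and 253 CPM in KOd and 548, 563 and 649 CPM in labelled KOs (-1.28 ± 0.09) and MAGEC1 higher (2.05 ± 0.23). Several of these, such as XAGE1A and XAGE1B, are near-identical copies with the same counts.

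Nuclear noncoding RNAs were higher in KOd. Of 24 long noncoding RNAs and snoRNA host genes, 16 were higher and 1 lower (median 0.50). NEAT1, the scaffold of paraspeckles, was at 231, 229.6 and 209 CPM in KOd and 15.9, 13.0 and 7.44 CPM in labelled KOs (4.20 ± 0.51, adjusted p = 1.5e-06). MALAT1, of nuclear speckles, was at 30.8, 34.2 and 40.8 CPM in KOd and 8.50, 3.95 and 3.41 CPM in labelled KOs (2.73 ± 0.38). SNHG1 was at 372, 414 and 474 CPM in KOd and 16.3, 29.1 and 34.3 CPM in labelled KOs (3.99 ± 0.21), and SNHG12, SNHG15 and GAS5 had 2.88, 1.61 and 1.38. Several spliced snoRNA host transcripts are known to be degraded by nonsense-mediated decay when they are translated. The lower member was CYTOR (-1.82 ± 0.12). The strand setting of the counting is not given in the sources used here, so reads of overlapping and antisense genes may be included.

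More cell cycle genes were lower than higher in KOd. Of 33 mitosis genes 15 were lower and 6 higher (median -0.31), with the kinesin KIF20A at 90.1, 76.7 and 69.0 CPM in KOd and 208, 240.3 and 209.5 CPM in labelled KOs (-1.48 ± 0.12). Among the higher members were CENPE, a kinetochore motor, at 78.4, 55.7 and 59.5 CPM in KOd and 13.5, 18.1 and 11.4 CPM in labelled KOs (2.17 ± 0.27) and HMMR at 1.25 ± 0.18. Of 35 replication genes 14 were lower and 5 higher (19 and 3 without replicate A of labelled KOs), MCM6, of the helicase, having -1.05 ± 0.13.

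The differences were unevenly spread over the chromosomes. On chromosome 13, 194 of 283 tested genes were higher in KOd and 21 lower, with a median of 0.86, and on chromosome 11, 459 of 893 were higher and 113 lower, with a median of 0.48. Against wt the chromosome 13 median was -0.07 in KOd and -0.91 in labelled KOs, and that of chromosome 11 -0.02 and -0.52. Chromosome 4 had 0.36. The lowest medians were on chromosome 22 (-0.36, with 184 of 411 genes lower), chromosome 2 (-0.27) and chromosome 19 (-0.25). Among 268 windows of 10 Mb with at least 20 tested genes, the highest medians were 1.54 at chr4:160000001-170000000 (18 of 25 genes higher), 1.54 at chr11:90000001-100000000 (23 of 29) and 1.34 at chr11:100000001-110000000 (25 of 37). The first holds FAM218A, the second TAF1D, a subunit of the RNA polymerase I factor SL1, which was at 103, 109 and 122 CPM in KOd and 15.3, 13.0 and 13.6 CPM in labelled KOs (3.00 ± 0.10, adjusted p = 2.7e-12), and the third BIRC2 and BIRC3. The window of NNMT, chr11:110000001-120000000, had a median of 0.03, with 26 of 82 genes higher and 24 lower. It joined 2 unlike parts: in windows of 5 Mb the one that holds NNMT, chr11:110000001-115000000, had a median of 0.82 (20 of 34 genes higher and 5 lower), and the next one -0.22 (6 of 48 higher and 19 lower). The lowest windows were chr2:130000001-140000000 (-0.82, 23 of 39 lower), chr2:240000001-250000000 (-0.80, 15 of 29) and chr5:140000001-150000000 (-0.77, 53 of 123), the last holding the clustered protocadherins. In tumorspheres their medians were -0.59, -0.37 and 0.08, the chromosome 5 window having 49 genes higher and 17 lower there. All 8 windows of chromosome 13 had positive medians, from 0.46 to 1.00. DNA was not analysed here, and the part of copy number in these medians was not tested.

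**Figure D4:**
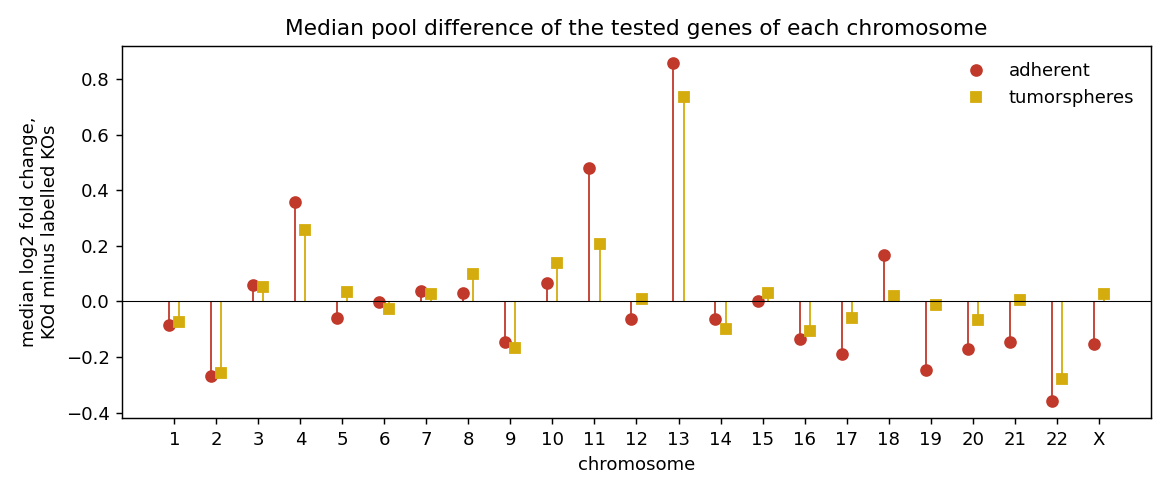
Median log2 fold change, KOd minus labelled KOs, of the tested genes of each chromosome in adherent cells (circles) and tumorspheres (squares). Chromosome 13 is highest in both cultures, at 0.86 and 0.74.

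The same pools as tumorspheres served as a second set of libraries that shares none with the adherent set. Labelled KOs libraries were deeper here too, at 37316513 to 39944290 counts against 27810953 to 30131281 in KOd. Ribosomal RNA genes took 1.45% to 1.88% of the counts against 2.82% to 5.33%. These traits thus went with the pool in both cultures, and their part in differences that recurred was not tested. In tumorspheres 7710 genes (47.2%) passed, 3907 higher (23.9%) and 3803 lower (23.3%) in KOd. Of the 5106 genes that passed in both cultures 4176 had the same direction and 930 the opposite, so 43.0% of the adherent calls and 54.2% of the tumorsphere calls recurred. Across the 16323 genes the log2 fold changes of the cultures had a Pearson correlation of 0.357 and a Spearman correlation of 0.381, a description across genes that are not independent. NNMT had -4.04 in tumorspheres, and the chromosome 13 median was 0.74. Of the 15 genes with the largest adherent differences upward 7 passed in the same direction and 2 in the opposite one, and of the 15 downward 9 passed in the same direction.

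The difference between the cultures was tested as an interaction, and 6758 genes passed (41.4%), 5318 of which also passed in adherent cells. The ATF4 list was among those that differed: 28 of its 33 members passed in adherent cells and in the interaction, and in tumorspheres 6 were higher and 13 lower, with a median of -0.15. TRIB3 had 2.61 in adherent cells and -0.15 in tumorspheres (interaction adjusted p = 2.7e-09), and DDIT3 2.91 and -0.70 (1.1e-07). The heat shock list had a median of -0.01 in tumorspheres, and HSPA8 had -0.30 there against -3.11 in adherent cells (interaction adjusted p = 9.7e-09). SNHG1 had 3.99 and -0.20, and GDF15 3.72 and 0.04. Proteasome subunits recurred, with 29 of 34 lower in tumorspheres as well (median -0.48).

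Of the 10 genes with the smallest interaction p among those that passed in adherent cells, several reversed. AKNA, a centrosomal protein gene, was at 68.6, 83.3 and 105 CPM in KOd and 8.57, 8.51 and 6.53 CPM in labelled KOs in adherent cells and at 6.69, 5.91 and 7.04 against 10.4, 9.79 and 9.82 CPM in tumorspheres (3.44 and -0.61, interaction adjusted p = 6.4e-10). CXCL1, a neutrophil chemokine, was at 0.858, 0.733 and 1.00 CPM in KOd and 0.0955, 0.107 and 0.0568 CPM in labelled KOs when adherent and at 2.93, 3.26 and 4.48 against 29.7, 27.8 and 28.1 CPM in tumorspheres (3.25 and -3.0). The co-stimulatory receptor gene TNFRSF9 had 4.92 and -0.67, and the alanine transaminase gene GPT2 1.73 and -0.41. The p53 target ZMAT3 (-0.51 and 1.91), the pyrophosphate transporter gene ANKH (-1.29 and 0.94) and CARD6 (-0.87 and 0.85) reversed the other way. DCN, the proteoglycan decorin, was lower in both (-1.05 and -4.98), and TAF1D higher in both (3.00 and 0.61). HSPA1B had -3.06 and 0.31, the latter not past the test.

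**Figure D5:**
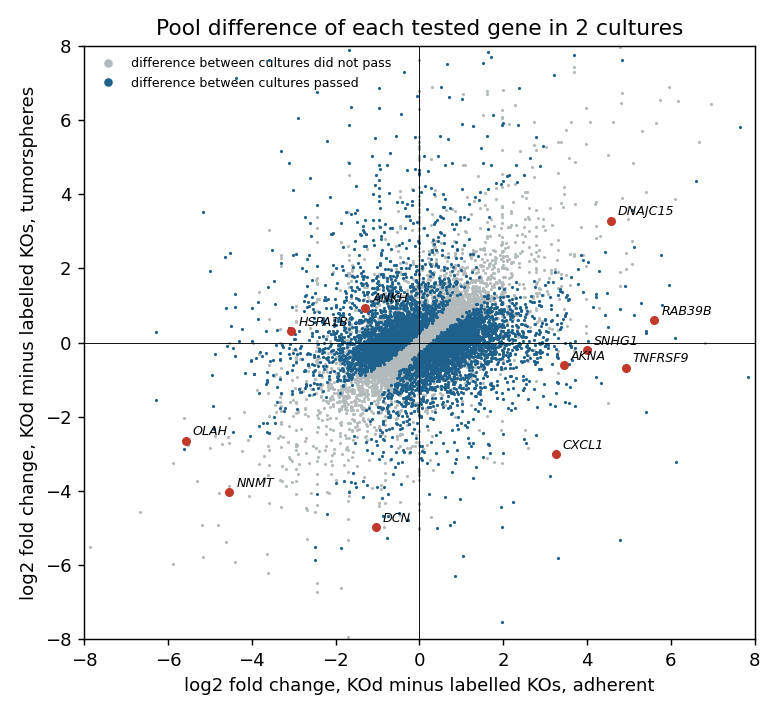
Log2 fold change, KOd minus labelled KOs, of each tested gene in adherent cells (horizontal) and tumorspheres (vertical), coloured by whether the interaction passed, with 11 genes named and 10 genes outside the axes of -8 to 8. NNMT lies near the diagonal and DNAJC15 is higher in both cultures, less so in tumorspheres, while SNHG1, RAB39B and TNFRSF9 lie near the horizontal axis.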

How the data were processed

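RNA-seq libraries, stranded TruSeq per the labels' protocols, were deposited as 1 table of raw counts per Entrez gene with gene lengths. Per the submitters' processing notes the tools include STAR and the build is hg38; versions, the counting tool and its strand setting are not given in the sources used here. The deposited counts were used unchanged. Symbols, coordinates and promoters came from RefSeq (GRCh38.p14) for 27740 of 27864 IDs.

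Groups were taken from the sample titles. Genes passing edgeR's filterByExpr (16323) were scaled by TMM and fitted with edgeR 4.0.16 (R 4.3.3) quasi-likelihood with 1 coefficient for each of 7 groups over all 20 libraries, with 13 residual degrees of freedom. Each contrast was called at a Benjamini-Hochberg adjusted p under 0.05 over all tested genes. CPM are TMM-scaled, with a prior count of 2 where logs were taken, and SE is the fold change divided by the square root of F. The biological coefficient of variation was 0.143. Scripts were tested on simulated data.

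Named genes were NNMT, genes within 1 Mb of it, the 15 largest non-overlapping differences each way at a mean log2 CPM of at least 2, on and off genes, the 10 smallest interaction p, and 4 members of each of 52 lists by adjusted p. Further list members were named for their role after their values were seen. The comparison, members and lists were chosen with earlier results of these data known. Alternatives were RLE scaling, library totals, 2 filters, DESeq2 1.42.0, limma-voom 3.58.1, ribosomal RNA genes left out, thinning, left-out libraries and a replicate block.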

Additional observations from a re-analysis of the deposited data

Results flagged for a closer look

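The difference between the pools differed between tumorspheres and adherent cells, by the interaction test, in 6758 genes, and in 40 of the 56 genes named by rule. Of the 40, 10 were chosen by their interaction p, and the others by their adherent difference, which the interaction subtracts. That choice favours an interaction of opposite sign, so the signs below are in part set by it. The values below are the log2 difference between the pools (KOd minus labelled KOs) in tumorspheres minus that in adherent cells.

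Among genes higher in adherent KOd the interaction was negative except for H2AJ, given below. It was -4.99 for RAB39B, -1.28 for DNAJC15, -2.89 for NEAT1, -1.85 for KCNH2, -4.18 for SNHG1 and -1.68 for ECM2. It was -1.80 for FGF13, -5.42 for NIBAN1, -3.68 for GDF15, -1.85 for TFAP2A, -2.41 for SESN2 and -5.20 for INHBE. The pseudogenes PKD1P1, PKD1P4-NPIPA8 and PKD1P3-NPIPA1, which share reads, had -3.69, -3.60 and -3.66. LINC00355 had -4.91, AKNA -4.05, GPT2 -2.14, TNFRSF9 -5.59, CXCL1 -6.25 and TAF1D -2.39.

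Among genes lower in adherent KOd the interaction was positive except for DCN, at -3.93. It was 2.94 for OLAH, 2.04 for TSPAN18, 4.05 for ANGPTL4, 2.53 for CEMIP, 1.45 for AQP9 and 1.16 for COL4A2. It was 1.30 for NAAA, 3.35 for HSPA1A, 3.38 for HSPA1B, 2.86 for TLR2, 1.56 for MYO1D and 3.03 for S1PR3. BACE2 had 1.95, SLC1A1 3.15, ZMAT3 2.42, ANKH 2.23 and CARD6 1.72. H2AJ, which was higher in adherent KOd, had 2.80, with means of 10.4 CPM in KOd and 0.0485 CPM in labelled KOs tumorspheres. The cause of these differences was not tested.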

How the results depend on the processing

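At an adjusted p under 0.05 and at least 2-fold, the counts were 3570 genes in adherent cells, 2639 in tumorspheres and 2911 for the interaction. Windows of 5 Mb gave a highest median of 0.999 and a lowest of -1.05, and the cause was not tested. COL3A1 turned to 0.44 without replicate A of labelled KOs (adjusted p = 0.47) and to 0.45 without that library, wt tumorsphere replicate C and KOd tumorsphere replicate C (adjusted p = 0.13). Leaving out 1 library at a time gave COL3A1 values from -2.47 to 0.44. Its call was lost without replicate A, B or C of KOd (adjusted p = 0.066, 0.08 and 0.09, with values of -2.08, -1.95 and -1.86), with the compared groups alone (-1.95, adjusted p = 0.14), with the replicate block (-0.82, 0.41) and with limma-voom (-0.89, 0.44). Leaving out 1 library at a time called 8858 to 10356 genes in adherent cells, 6463 to 7188 in tumorspheres and 5992 to 7965 for the interaction. Leaving out the 3 libraries together gave 11302 genes in adherent cells, 9816 in tumorspheres and 8723 for the interaction. With library totals alone the interaction split into 2429 higher and 4332 lower, 35.9% against 50.6% higher with TMM scaling.

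The replicate letters did not pair the samples: same-letter correlations were -0.020, -0.045 and 0.022 in adherent cells. A fit of the compared groups with a replicate block called 6908 genes in adherent cells, 9255 in tumorspheres and 6082 for the interaction, against 7595, 9568 and 6374 without the block. Of 5533 alternative values for 327 named genes, 5453 kept their side of the threshold, 68 lost the call, 10 gained it and 2 reversed, both for COL3A1. Of the 327 genes 313 passed in the main fit. Many were chosen by the size or adjusted p of their difference there, which favours keeping the call. A change of sign counted as a reversal only if the main or the alternative fit passed. Values that passed in neither could change sign, as VWF did without replicate A of labelled KOs (-0.88 to 1.22). A level of 1 CPM is under 50 counts in each of these libraries, so lower levels are imprecise.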

Other observations

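Adhesion and signalling lists that held members of both directions gave single genes with large differences between the adherent pools, KOd minus labelled KOs (log2 ± SE, edgeR quasi-likelihood test). Of 18 tested proteoglycans 8 were lower and 1 higher (8 and 4 without replicate A of labelled KOs). The higher one with all libraries was the glypican GPC6, at 7.24, 8.06 and 9.42 CPM in KOd and 0.573, 0.456 and 0.852 CPM in labelled KOs (3.71 ± 0.33, adjusted p = 4.2e-08), while the syndecans SDC1 and SDC2, membrane carriers of heparan sulphate, had -1.76 ± 0.13 and -1.80 ± 0.30. Of 32 laminins, fibronectin and matricellular genes 4 were higher and 8 lower (median -0.09), and 10 and 8 without replicate A (median 0.34). Of these, periostin (POSTN) and osteopontin (SPP1), secreted matricellular proteins, were lower, POSTN at 0.549, 0.628 and 0.103 CPM in KOd and 3.22, 3.54 and 7.61 CPM in labelled KOs (-3.47 ± 0.51) and SPP1 at -3.83 ± 0.41. The collagen crosslinking enzyme LOX was higher, at 4.12, 5.83 and 4.80 CPM in KOd and 1.36, 0.483 and 0.653 CPM in labelled KOs (2.53 ± 0.37).

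In the BMP and TGF-beta list 16 of 33 genes were lower and 10 higher. The ligands BMP2 and BMP4 stood on opposite sides (-2.07 ± 0.39 and 1.89 ± 0.33, and BMP4 at 2.63 without replicate A). Of 34 Wnt genes 6 were higher and 10 lower (10 and 7 without replicate A), and the feedback inhibitors NKD1 and NKD2 differed in opposite directions (-2.40 ± 0.40 and 2.62 ± 0.36). The netrin receptor gene UNC5B was at 136, 165 and 249.6 CPM in KOd and 42.0, 8.59 and 4.88 CPM in labelled KOs (3.30 ± 0.50, and 4.76 without replicate A), and the Notch ligand gene DLL3 had -3.25 ± 0.31. The RNA-binding proteins IGF2BP1 and IGF2BP3 also differed in opposite directions (2.35 ± 0.37 and -1.91 ± 0.41, the latter -1.26 without replicate C of labelled KOs). The lysosomal protease gene CTSF was at 4.91, 4.57 and 4.49 CPM in KOd and 0.358, 0.322 and 0.227 CPM in labelled KOs (3.91 ± 0.26).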
